A study of Macaca mulatta with 4 samples.

Results

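S-phase granule cell precursors of the fetal cerebellum were taken as the barcodes that carried transcripts of DNA replication genes, few of 7 mitotic genes and none of 4 genes of other lineages. A barcode, the tag of 1 droplet and here of 1 nucleus, was a member if it had 500 or more genes and at least 3 of the 9 S-phase genes BRCA2, BRIP1, EXO1, ZGRF1, DTL, ATAD2, POLQ, CLSPN and DIAPH3. It also had at most 2 of the 7 mitotic genes ASPM, KIF14, CENPE, DLGAP5, GTSE1, CDCA2 and PRR11, and 0 transcripts (UMIs) of the 4 exclusion genes SLC1A3, PDGFRA, COL1A2 and PTPRC. This rule selected 267 of 32587 barcodes (0.819%). The members were thus chosen by measured values of 20 genes, so their differences from the other 32320 barcodes are a description and were not tested. These other barcodes are all that were not members, so they include dividing nuclei removed by the mitotic or exclusion genes.

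Nuclei were isolated from frozen cerebellum (hemispheres and vermis) of 4 rhesus macaque (Macaca mulatta) fetuses, and each fetus gave 1 library of droplet-based single-nucleus RNA sequencing. The 2 Control fetuses were labelled as having had no intervention, and were a female and a male of 130 days of gestation. The 2 LPS fetuses, a female of 131 days and a male of 133 days, had received 1 mg of lipopolysaccharide from Escherichia coli into the amniotic fluid 5 days before delivery, as a model of chorioamnionitis. All 4 were delivered preterm, and no genetic alteration was named for any of them. Values of the 4 libraries are given in the order Control female, Control male, LPS female and LPS male.

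Granule cell precursors (GCPs) divide in the external granule layer of the cerebellum, where Sonic hedgehog (SHH) released by Purkinje cells binds the receptor PTCH1, frees SMO and turns the GLI factors into activators. While they pass through S phase they license and fire replication origins, make deoxynucleotides and copy the genome, under the control of E2F factors. After their last division they express genes of commitment and migrate inwards as granule cells (GCs).

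The 4 libraries held 9256, 8621, 6905 and 7805 barcodes with 500 or more genes, and a median of 4506, 1882, 4062 and 2308 UMIs per barcode. The female libraries were deeper per barcode than the male ones and had more mitochondrial UMIs (0.212 to 0.225% against 0.0196 to 0.0256%). These barcodes held 73.9, 58.7, 74.1 and 38.7% of all UMIs of their libraries, so the male libraries had the larger part outside them. Fetal sex and these properties of the libraries thus cannot be told apart. Pairs of libraries shared 16 to 22 barcode sequences (at most 0.282% of a library).

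The exclusion genes decided more of the membership than the mitotic genes did, and to a different extent in each library. Barcodes with at least 3 S-phase genes and at most 2 mitotic genes numbered 391, 343, 384 and 177, and the exclusion genes kept 11.8, 38.2, 10.2 and 28.8% of them. Of the 1028 barcodes that they set aside, 461 (44.8%) were set aside by PDGFRA alone. PDGFRA, a receptor of oligodendrocyte precursors, was found in 64.8, 34.3, 74.7 and 29.9% of all barcodes with 500 or more genes, so it was not limited to a lineage in these libraries. It was found in 80.0, 35.0, 85.3 and 40.5% of 215 oligodendrocyte nuclei, which were told by at least 3 of 6 oligodendrocyte genes, MOG, MAG and MOBP among them. These nuclei were also deeper, with medians of 7879.5, 3427, 8732 and 3947 UMIs against 4506, 1882, 4062 and 2308 in all these barcodes. In barcodes of at most 100 UMIs, which hold free RNA, PDGFRA stood at 508, 292, 1214 and 199 CPM (UMIs of the gene scaled to the same total of UMIs in each sum), above its level of 277, 248, 388 and 167 CPM in the barcodes with 500 or more genes of each library. SLC1A3, a glutamate transporter of astrocytes, was likewise higher in free RNA than in these barcodes in all 4 libraries. In the oligodendrocyte nuclei PDGFRA stood at 229, 170, 288 and 138 CPM, below its level in the barcodes with 500 or more genes of each library. The 2 female libraries, which were deeper per barcode and held more PDGFRA in free RNA, kept the smaller parts of their barcodes. The part of free RNA in the values below was not tested.

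The members numbered 46, 131, 39 and 51, or 0.497, 1.52, 0.565 and 0.653% of the barcodes of their libraries. The exact 95% binomial intervals of these shares were 0.364 to 0.662%, 1.27 to 1.80%, 0.402 to 0.771% and 0.487 to 0.858%, for counting error only. The Control male library lay above the other 3, whose intervals overlapped. Before the exclusion clause, the order was another, with 4.22, 3.98, 5.56 and 2.27% of barcodes, the LPS female library highest and the LPS male library lowest. With each barcode thinned to 1000 UMIs before the rule was applied, and shallower barcodes left out, the shares were 1.49, 1.79, 1.96 and 1.06%. Members had a median of 3882.5, 1839, 3445 and 2697 UMIs, near those of the other barcodes (4509.5, 1882.5, 4069.5 and 2304). Scrublet called 19 of the 267 members doublets (7.12%), against 5.97% of the other barcodes. By library these were 0, 11.5, 0 and 7.84% of members, against 5.48, 7.33, 5.36 and 5.62% of the other barcodes. The Control male library held 15 of the 19.

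**Figure D1:**
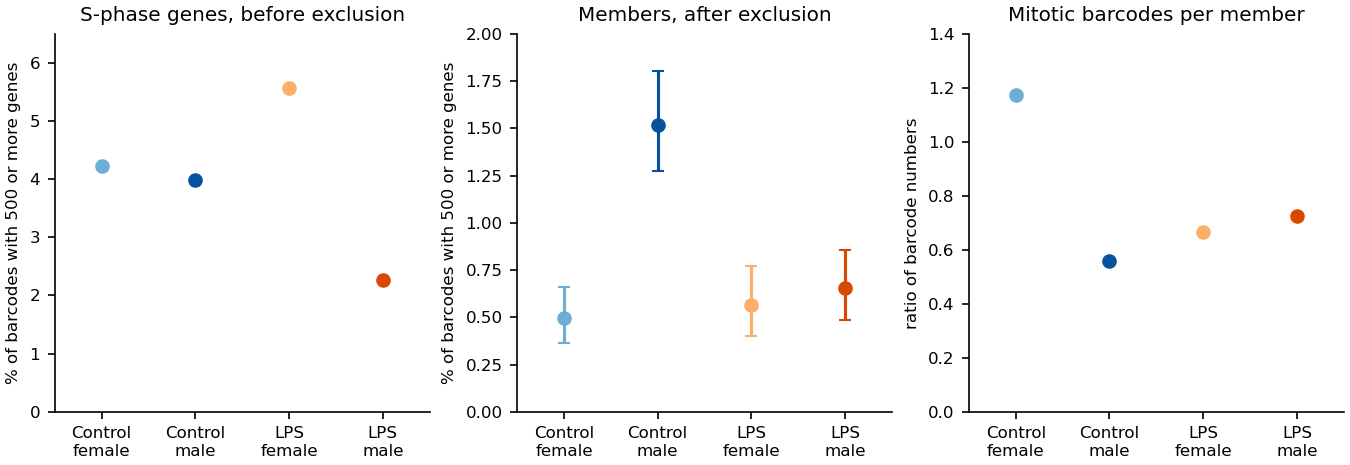
Share of barcodes with at least 3 S-phase and at most 2 mitotic genes (left), share of members after the exclusion genes (middle, bars are exact 95% binomial intervals) and ratio of mitotic barcodes to members (right), 1 point per library. The Control male library has the highest share of members (1.52%) and the lowest ratio (0.557), while the LPS female library is highest before exclusion (5.56%).

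The 9 S-phase genes that chose the members had, as the rule fixes, higher levels in them than in the other barcodes. BRIP1, a helicase of interstrand crosslink repair, stood at 593, 443, 282 and 421 CPM in the members against 28.4, 25.1, 35.0 and 20.5 CPM in the others. DTL, which directs the destruction of the licensing factor CDT1 in S phase, stood at 278, 251, 297 and 279 CPM against 17.7, 21.0, 23.3 and 13.9 CPM. EXO1, an exonuclease of mismatch repair, stood at 180, 228, 188 and 231 CPM, and CLSPN, an adaptor of the replication checkpoint, at 109, 192, 102 and 177 CPM. The remaining 5 genes, ATAD2, BRCA2, DIAPH3, POLQ and ZGRF1, were between 2.76 and 3.26 above the other barcodes on the log2 scale (with 5 CPM added). The 9 genes summed to 4021, 3432, 2944 and 2956 CPM in the members. In mitotic barcodes, defined below, they summed to 3689, 2702, 2888 and 2754 CPM, so their sum was not particular to the members. DIAPH3 was higher in mitotic barcodes in each library (2009, 995, 1583 and 969 CPM against 1333, 558, 877 and 639 CPM). BRCA2 and ATAD2 had no common direction, and BRIP1, DTL, EXO1, CLSPN, ZGRF1 and POLQ were lower in mitotic barcodes in each library. Members had a median of 6, 4, 5 and 5 of the 9 genes, so those of the Control female library were the richest in them. Exactly 3 genes were found in 65 members, and 1 member had all 9.

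The members just inside this threshold were poorer in replication genes than the rest, and the barcodes just outside it poorer still. Summed over the list of origin licensing and firing genes, the 65 members with 3 S-phase genes had 1536 CPM (range over libraries 1192 to 2089). The 192 barcodes with 2 S-phase genes that met the other clauses had 920.2 CPM (506.2 to 1334), and all other barcodes had 379.9 CPM (325.5 to 463.8). The barcodes just outside thus stood between the members and the bulk of the library.

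Genes of replication that the rule had not named were also higher in the members. Of 12846 genes outside the rule with a mean of 2 CPM or more, 19.5% were higher in the members than in the other barcodes of all 4 libraries and 19.8% were lower in all 4, with a median log2 difference of -0.03. Of the origin licensing and firing genes, 18 of 20 measured were higher in all 4 libraries, with a median log2 difference of 2.14. The DNA polymerases and fork proteins had 21 of 25 (median 1.71), the nucleotide supply genes 6 of 6 (2.45), the recombination and Fanconi repair genes 16 of 16 (2.40) and the G1/S control genes 11 of 13 (2.12). No gene of these 5 lists was lower in all 4 libraries.

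Among the origin genes, CDC45, a part of the helicase that opens the origin, had 97.9, 149, 157 and 136 CPM in the members against 11.1, 13.5, 10.1 and 7.96 CPM in the others. The log2 difference was 3.15 ± 0.36 (SD, n = 4 libraries), and the lowest member value was several times the highest value of the other barcodes. TICRR, which loads CDC45, and MCM10, which activates the helicase, were higher by 2.56 ± 0.23 and 2.79 ± 0.55 on the log2 scale. MCM8, a helicase of recombination, was higher by 2.26 ± 0.19. The 6 subunits of the replicative helicase itself, MCM2 to MCM7, were all higher in all 4 libraries, from 1.55 (MCM7) to 2.58 (MCM3) on the log2 scale. The exceptions of this list were RECQL4 and GINS2, which were at 0 in 2 of the 4 member sums.

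Of the polymerases and fork proteins, POLE, the catalytic subunit of the leading-strand polymerase, had 218, 406, 133 and 238 CPM against 16.9, 40.5, 16.6 and 24.4 CPM (log2 3.06 ± 0.28). CHAF1A, which places histones on new DNA, was higher by 2.63 ± 0.14, POLA1, the primase-bound polymerase, by 2.59 ± 0.26 and LIG1, the ligase of Okazaki fragments, by 2.73 ± 0.39. PCNA, the sliding clamp and a common S-phase marker, was a weak mark in these nuclei, with 38.1, 89.2, 15.7 and 0 CPM in the members. POLD1, POLD2, PCNA and RPA3 were the 4 genes of the list that were not higher in all libraries.

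Every nucleotide supply gene was higher in every library. RRM2, the S-phase subunit of ribonucleotide reductase, had 87.1, 102, 78.3 and 61.2 CPM in the members and 4.41, 4.44, 6.58 and 2.61 CPM in the others (log2 3.19 ± 0.28). Its partner RRM1 was higher by 2.25 ± 0.15, TYMS, which makes thymidylate, by 2.65 ± 0.43 and the thymidine kinase TK1 by 2.68 ± 0.50. RRM2 was found in 19.9% of members and in 1.37% of the other barcodes, so most members had no transcript of it at this depth.

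In the recombination list, HELLS and BRCA1 were the most widely found, in 76.8 and 75.7% of members. BRCA1, of homologous recombination, had 626, 664, 525 and 680 CPM in the members against 71.2, 89.5, 72.6 and 81.9 CPM. RAD51AP1, a factor of homologous recombination, was higher by 2.99 ± 0.09 and MMS22L, which mends stalled forks, by 2.87 ± 0.13, with little spread between libraries. HELLS, a chromatin remodeler of dividing cells, had 316, 991, 423 and 870 CPM in the members and 51.3, 132, 60.3 and 105 CPM in the others. Its levels were higher in the male than in the female libraries in both kinds of barcode, while the difference between them varied little (2.77 ± 0.21).

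The E2F factors that open the S-phase programme were part of the same picture. E2F1 had 87.1, 69.4, 78.3 and 88.3 CPM in the members against 5.51, 7.62, 5.86 and 5.35 CPM, and E2F2 differed by 3.02 ± 0.39. UHRF1, which keeps DNA methylation through replication, and CCNE2, the cyclin E of S-phase entry, were higher by 3.09 ± 0.56 and 2.47 ± 0.35. CCNA2 and CCNE1 were the 2 genes of the list that were not higher in every library. Of 7 replication checkpoint genes, 3 were higher in all 4 libraries, namely WEE1 (1.97 ± 0.47), ATR (1.05 ± 0.14) and RAD9A (0.74 ± 0.34), with a list median of 0.72.

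By the highest difference in the least favourable library, the 10 leading genes outside the rule were RAD51AP1, RRM2, BRCA1, KNTC1, MMS22L, POLE, CDC45, ENSMMUG00000042289, E2F2 and E2F1. KNTC1, a kinetochore protein of the spindle checkpoint, differed by 3.15 ± 0.44. The gene known only by its identifier had 59.9, 66.1, 78.3 and 47.6 CPM in the members and 4.604, 6.06, 6.41 and 3.34 CPM in the others. The other 8 belong to the replication, repair and E2F lists described above.

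**Figure D2:**
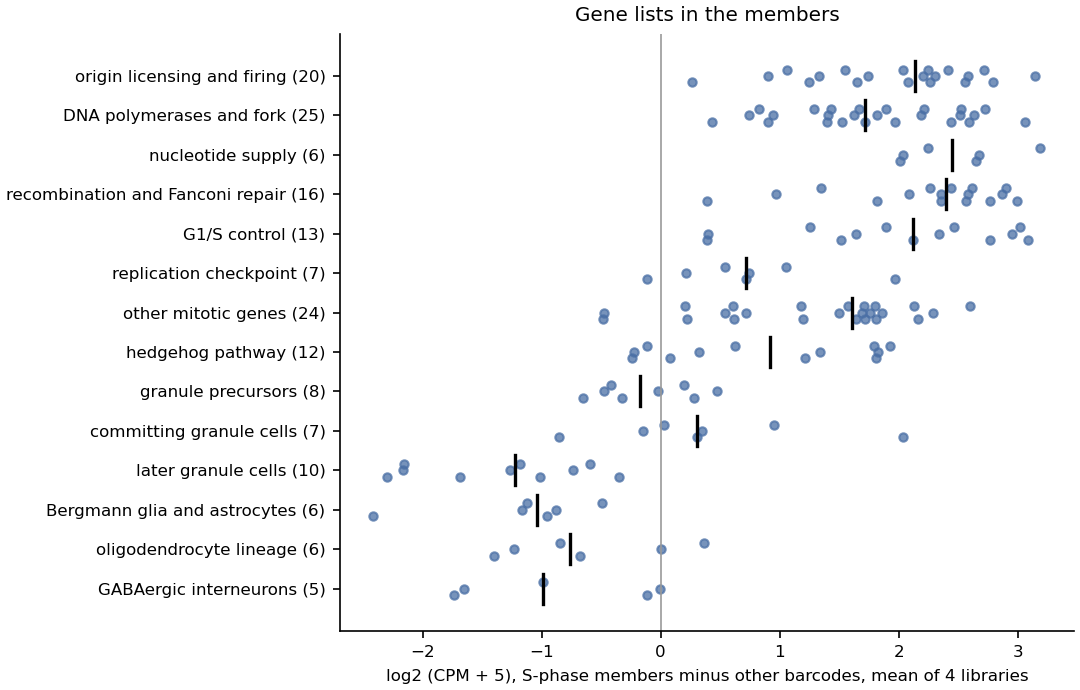
Difference between members and other barcodes for each measured gene of 14 lists, as the mean of the 4 libraries on the log2 scale with 5 CPM added, with the number of measured genes in parentheses. Points are genes and bars are list medians, which lie between 1.71 and 2.45 for the 5 lists of replication, repair and G1/S control and at -1.22 for the later granule cell genes.

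Members were not free of transcripts of later cell cycle phases. Of 24 measured mitotic genes outside the rule, 16 were higher in the members in all 4 libraries, with a median log2 difference of 1.61. MKI67, the proliferation antigen, had 136, 261, 102 and 190 CPM in the members against a mean of 33.3 CPM in the other barcodes and 500.4 CPM in mitotic barcodes. TOP2A, which untangles chromosomes, had 174, 370, 157 and 224 CPM, against means of 64.2 and 1294 CPM. NCAPG, a condensin subunit, and KIF11, the spindle kinesin, differed by 2.60 ± 0.09 and 2.29 ± 0.24. By contrast CCNB1, the mitotic cyclin, had 0, 13.2, 47.0 and 0 CPM and AURKA, the spindle pole kinase, 5.44, 0, 7.83 and 6.80 CPM. MKI67, TOP2A, NCAPG and KIF11 were thus between the other and the mitotic barcodes, although the other barcodes include the mitotic ones. CCNB1 and AURKA had no common direction over the 4 libraries.

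The mean level of mitotic genes also differed between classes of members, rising at each step in 3 libraries but going from 2818 CPM with 1 mitotic gene to 2146 CPM with 2 in the LPS male library. Those without any of the 7 mitotic genes numbered 115, those with 1 gene 96 and those with 2 genes 56. The summed level of the mitotic genes outside the rule was 1405 CPM (range over libraries 1178 to 1700) with 0 of these genes, 2205 CPM (1545 to 2913) with 1 and 2967 CPM (1844 to 4265) with 2. In the 190 mitotic barcodes, which had at least 3 of the 7 genes and none of the exclusion genes, it was 8366 CPM (7653 to 9403). The origin genes stood at 1971, 1847 and 1695 CPM in the 3 classes of members and at 1278 CPM in mitotic barcodes. The ranges of neighbouring classes of members overlapped for both lists, and the origin genes did not fall at each step in the Control libraries. Polymerase and fork genes stood at 3377, 3407 and 2908 CPM, recombination genes at 3518, 3803 and 3522 CPM and G1/S genes at 1720, 2080 and 1651 CPM in the 3 classes, with no common order. Nucleotide supply genes stood at 494.9, 658.7 and 509.1 CPM in the members and fell to 210.7 CPM (154.4 to 276.3) in mitotic barcodes, outside the range of the classes with 0 or 1 mitotic gene.

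**Figure D3:**
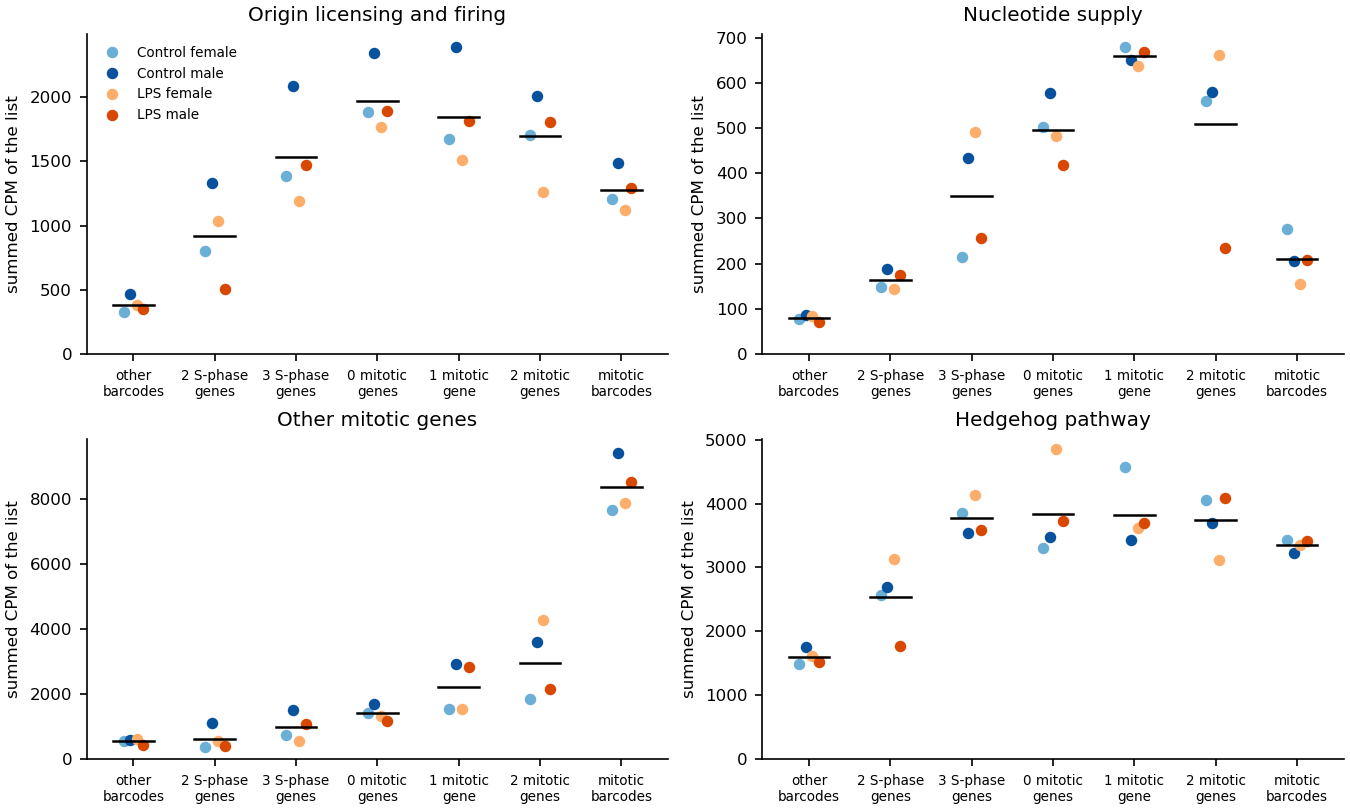
Summed CPM of 4 gene lists in the other barcodes, in barcodes with exactly 2 or 3 of the 9 S-phase genes, in members by their number of mitotic genes and in mitotic barcodes. Points are libraries and bars are their means. Mitotic genes outside the rule go from 1405 to 8366 CPM from members with 0 mitotic genes to mitotic barcodes, while the hedgehog list stays between 3359 and 3840 CPM in these classes, against 1595 CPM in the other barcodes. GLI3 and BOC have the highest levels of the hedgehog list in the members, so its sum does not measure the activity of the pathway.

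Most measured genes of the hedgehog pathway were higher in the members as well. Of 12, 8 were higher in all 4 libraries, 1 (SUFU) was lower in all 4, and CDON, CCND1 and HHIP had no common direction, with a median log2 difference of 0.92. BOC, a co-receptor that presents SHH to PTCH1, had 941, 717, 650 and 775 CPM in the members and 253, 194, 227 and 198 CPM in the others (1.79 ± 0.20). CDON, a co-receptor of the same family, had 136, 106, 117 and 116 CPM against 122, 129, 113 and 153 CPM, with overlapping values. The values of BOC in the members and the other barcodes did not overlap, and those of CDON did.

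The receptor PTCH1, itself a target of the pathway, had 201, 294, 211 and 231 CPM against 149.5, 251, 135.5 and 224 CPM, a small difference that was positive in each library (0.33 ± 0.25). SMO, the transducer under its control, had 207, 228, 188 and 204 CPM against 77.4, 93.6, 74.8 and 70.5 CPM, and its difference was the most even of the pathway (1.34 ± 0.10). SUFU, which holds the GLI factors back, had 147, 241, 157 and 231 CPM against 178, 281, 163 and 311 CPM and was lower in each library (-0.24 ± 0.15).

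The GLI factors differed most. GLI2, the main activator in GCPs, had 218, 519, 133 and 442 CPM in the members against 48.9, 139.5, 49.0 and 77.5 CPM in the others (1.92 ± 0.45). GLI3, which acts mostly as a repressor, had 1687, 1011, 2145 and 1407 CPM against 455, 380, 616 and 297 CPM (1.82 ± 0.34). GLI2 was found in 55.4% of members, in 14.7% of the other barcodes and in 5.58% of oligodendrocyte nuclei, although these were the deeper nuclei (medians of 7879.5, 3427, 8732 and 3947 UMIs). With barcodes thinned to 1000 UMIs, it was found in 30.3% of members and 6.64% of the others. GLI1, a target of the pathway, was rare, with 9 UMIs in all members, in 2.996% of members against 0.665% of the others. SFRP1, a secreted regulator of Wnt signalling in the same list, had 114, 95.8, 196 and 81.5 CPM against 34.4, 21.9, 63.8 and 14.1 CPM. CCND1 and HHIP, further targets, had 7 and 11 UMIs in the members, too few to place.

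Markers of the granule lineage were present in the members at levels near those of the other barcodes, and did not by themselves set the members apart as precursors. Of 8 measured precursor genes, 1 was higher and 1 lower in all 4 libraries, with a median of -0.17. ATOH1, the factor that defines GCPs, had 2 UMIs in all members, both in the Control female library, and was found in 0.749% of members and 0.269% of the others. PAX6, a factor of the granule lineage, had 201, 585, 344 and 503 CPM against 198, 406, 199 and 338 CPM (0.47 ± 0.32). ZIC1 had 250, 244, 282 and 245 CPM against 272, 205, 272.5 and 298 CPM and ZIC4 was lower in each library (-0.47 ± 0.14). MEIS1 differed by 0.28 ± 0.29, ZIC5 by 0.19 ± 0.56 and MEIS2 by -0.32 ± 0.66, none of them in the same direction in all 4 libraries. The rule used none of these precursor genes, so the name of granule cell precursor rested on the genes of the rule. PAX6, MEIS1 and ZIC1 were present in the members, but each was also found in most of the other barcodes. ATOH1 was too rare to serve as a mark.

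Genes of commitment divided. HES6, which is switched on as precursors leave the cycle, had 1099, 628, 1292 and 680 CPM in the members against 259, 155, 376 and 131 CPM (2.04 ± 0.24), and was found in 79.4% of members. The guidance receptor DCC had 1926, 1126, 2513 and 1400 CPM against 1087, 738, 1205 and 554 CPM (0.95 ± 0.31). NEUROD2, a factor of differentiating neurons, was lower in each library (-0.85 ± 0.85), and NEUROD1 had 256, 62.75, 251 and 81.5 CPM, with no common direction.

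Genes of later granule cells were lower in the members, with 9 of 10 lower in all 4 libraries and a median of -1.22. CNTN5, an adhesion molecule, had 65.3, 112, 31.3 and 61.2 CPM against a mean of 336.8 CPM in the others (-2.30 ± 1.05), CHRM3, a muscarinic receptor, differed by -2.17 ± 0.76 and DCX, of migrating neurons, by -1.18 ± 0.75. RBFOX3, a marker of maturing neurons, was an exception in size, with 963, 3260, 1104 and 1753 CPM in the members against 1288, 3465, 1130 and 3167 CPM. It was also found in 45.1% of oligodendrocyte nuclei, and free RNA held 828, 1841, 705 and 1306 CPM of it. It was found in 92.1% of members and 79.5% of the other barcodes, and the part of free RNA in these shares was not tested.

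**Figure D4:**
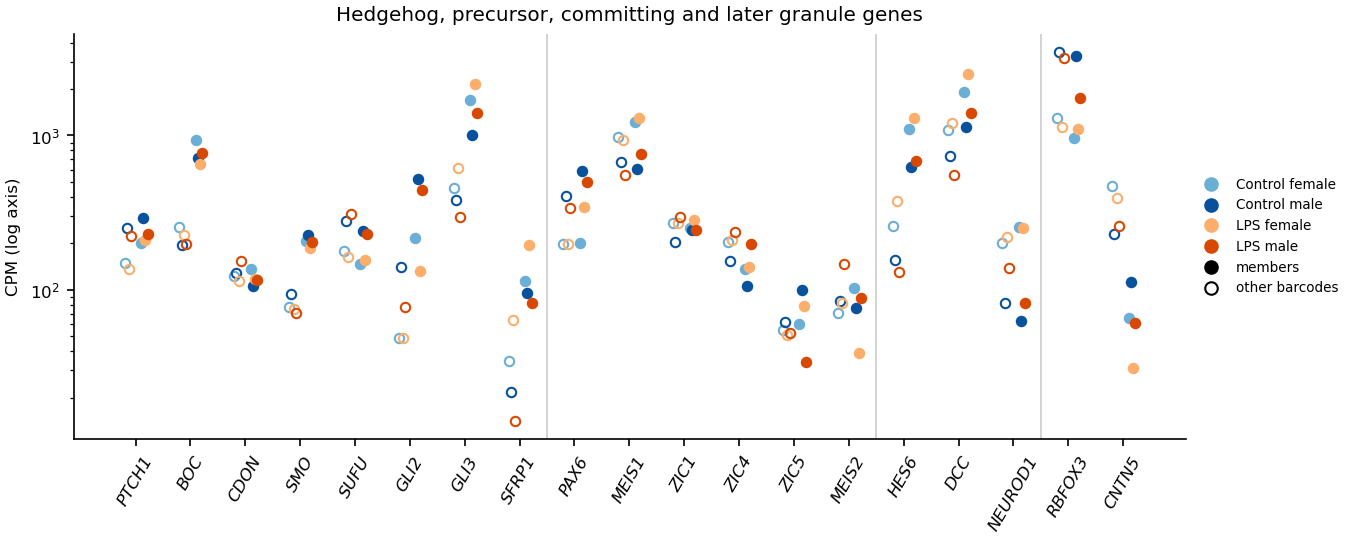
CPM (log axis) of hedgehog, granule precursor, committing and later granule cell genes, separated by grey lines, in the summed members (filled) and the other barcodes (open) of each library. BOC, SMO, GLI2, GLI3, SFRP1 and HES6 have all 4 member values above their other barcodes, ZIC1 and MEIS1 overlap, and CNTN5 is below.

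Lists of markers of other cell types held 2 to 6 measured genes each, and their counts of genes lower in all 4 libraries stand beside 19.8% of all genes. The rule had removed barcodes with SLC1A3, PDGFRA, COL1A2 or PTPRC, genes of other lineages. Low levels of further markers of those lineages were thus in part fixed by the rule and are no separate evidence of identity. Of the Bergmann glia and astrocyte markers, 5 of 6 were lower in all 4 libraries, with HOPX at 0 UMIs and a list median of -1.04. Their summed level was 149.4 CPM (range 81.6 to 224.3) in the members and 542.3 CPM (448.6 to 595.4) in the others. Of the oligodendrocyte lineage list, 3 of 6 were lower in all 4 libraries, and the myelin genes MOG, MAG and MOBP had 4 UMIs together in the members. MBP was among the 3 without a common direction, with 278, 291, 282 and 401 CPM against 187, 167, 199 and 520 CPM. The list summed to 326.5, 307.2, 336.6 and 441.7 CPM in the members against 266.4, 198.8, 276.3 and 670.4 CPM in the others, so it was higher in the members in 3 of 4 libraries. GAD1, GAD2 and PAX2 of GABAergic interneurons were lower in each library (-1.65 ± 0.66, -0.99 ± 0.64 and -1.74 ± 0.64). Of Purkinje cell markers 2 of 5 were lower in all libraries, of microglia and of ventricular zone progenitors 1 of 3 each, of endothelium, fibroblasts and choroid plexus 1 of 2 each, and of unipolar brush cells 0 of 2. SKOR2 of Purkinje cells and DCN of fibroblasts were at 0 UMIs, which allows up to 3.94 CPM over all members. TTR of the choroid plexus had 10.9, 0, 329 and 0 CPM in the members against 10.1, 1.31, 305 and 1.14 CPM in the other barcodes, so both kinds of barcode were high in the LPS female library alone.

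Of 7 measured genes of cell cycle exit, 1 was higher and 1 lower in all 4 libraries, and their list summed to 359.1, 475.6, 477.5 and 468.9 CPM in the members against 320.5, 277.2, 325.6 and 273.6 CPM in the others. RB1, the restrainer of E2F, had 234, 301, 329 and 279 CPM in the members against 184, 159, 181 and 164 CPM (0.71 ± 0.25), and was the gene of this list that was higher in all 4. The inhibitor CDKN1A had 0 UMIs, which allows up to 3.94 CPM over all members and does not show absence. Of 6 measured genes of the p53 and damage response, 1 was higher and 2 were lower in all 4 libraries, with a median of -0.26. Over all genes, 19.5% were higher and 19.8% lower, and so few genes were not tested against these shares. MDM2, which restrains p53, was the higher gene (0.63 ± 0.32), and SESN1 and ZMAT3 were lower. Of the inflammatory and glucocorticoid response list, 8 of 20 genes were measured. In the members 12 of the 20 had 0 UMIs, which again allows up to 3.94 CPM for each. FKBP5, a target of the glucocorticoid receptor, stood out, with 234, 129, 133 and 61.2 CPM in the members against 18.1, 20.2, 27.8 and 11.1 CPM in the others (2.47 ± 0.62). It was found in 25.8% of members, 4.86% of the other barcodes and 4.19% of oligodendrocyte nuclei. ZBTB16, STAT3 and TNFAIP3 of the same list were lower in each library.

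The barcodes that PDGFRA alone had set aside overlapped with the members in origin, hedgehog and astrocyte genes. They were lower in nucleotide supply and G1/S genes in each library, and higher in oligodendrocyte genes in 3 of 4 libraries. They had 1696 CPM of origin genes (range 1546 to 1936) against 1871 CPM (1589 to 2279) in the members, 3491 CPM of hedgehog genes (3198 to 3759) against 3835 CPM (3514 to 4094) and 109.9 CPM of astrocyte markers (90.1 to 126.5) against 149.4 CPM. The ranges of the 2 classes overlapped in each of these lists, although the origin sum was lower in each library except LPS female and the hedgehog sum except Control male. The nucleotide supply genes had 432, 494, 518 and 274 CPM against 577, 604, 571 and 442 CPM in the members. The G1/S genes had 1332, 1843, 1508 and 1251 CPM against 1926, 2001, 1574 and 1808 CPM. The oligodendrocyte lineage list stood at 301.0, 460.0, 385.5 and 895.9 CPM in the barcodes set aside by PDGFRA alone. It stood at 326.5, 307.2, 336.6 and 441.7 CPM in the members, with the widest gap in the LPS male library. The 547 barcodes with SLC1A3, which were thus chosen by an astrocyte gene, differed, with 1040 CPM of astrocyte markers (698 to 1207) and 1333 CPM of origin genes. The doublet caller marked 10.4% of the barcodes set aside by PDGFRA alone and 19.6% of those with SLC1A3.

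The comparison of LPS with Control fetuses addressed whether the share of members among barcodes, and their genes, differed between the groups. Both LPS fetuses were older (131 and 133 days against 130), and the Controls had no intervention. An effect of LPS thus cannot be told apart from gestational age or the injection itself. The share of members was 1.01% ± 0.723 (SD, n = 2) in Control and 0.609% ± 0.0627 in LPS libraries, and the groups overlapped. The difference of the mean log2 shares was -0.52, with p = 1 in a two-sided exact permutation test over the 4 libraries, which cannot give less than 0.333. Between the females it was 0.18 and between the males -1.22. Without the Control male library it turned to 0.29. With PDGFRA not used the shares were 2.11, 2.62, 2.88 and 1.38%, and the log2 difference was -0.23.

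There were 54, 73, 26 and 37 mitotic barcodes, or 1.17, 0.557, 0.667 and 0.725 per member. The LPS ratios lay between those of the 2 Control libraries. The difference of the mean log2 ratios was -0.22 with p = 1 in the same exact permutation test. It was -0.82 between the females and 0.38 between the males, and turned to 0.32 without the Control female library and to 0.035 with PDGFRA not used.

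For single genes, the UMIs of the members were summed per library (183780, 302777, 127737 and 147155 UMIs) and fitted with edgeR's quasi-likelihood test. None of 4336 genes (0%) passed an adjusted p of 0.1 with an absolute log2 difference over 0.25, while 32 had an unadjusted p under 0.05. The count by DESeq2 was 0 as well (11 unadjusted). Leaving out the Control female, Control male, LPS female or LPS male library gave 24, 9, 1 and 5 calls, with the lone library of its group assumed to vary like the other group. With fetal sex as a term the fit called 0 genes and had 197 at an unadjusted p under 0.05. Both LPS libraries lay above both Control libraries for 10.3% of the 4336 genes and below them for 11.7%.

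The hedgehog genes gave no call. Of 9 genes with enough UMIs, 0 were called in the fit over all genes, 0 lay above without overlap and 1, SMO, below. Over all 4336 genes, 10.3% lay above and 11.7% below. The SMO values differed by -0.13 ± 0.39 on the log2 scale (SE of the fit, 2 libraries a group). GLI2 differed by -0.34 ± 0.60, GLI3 by 0.41 ± 0.47, BOC by -0.20 ± 0.39 and PTCH1 by -0.14 ± 0.40. The adjusted p of edgeR was above 0.99 for each.

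The other lists of interest gave no call either. Of the 13 origin genes tested, 2 were higher and 1 was lower without overlap (median log2 difference -0.33), of 15 polymerase and fork genes 1 and 2 (-0.12), of 5 nucleotide genes 0 and 2 (-0.03), of 14 recombination genes 0 and 2 (-0.07) and of 9 G1/S genes 0 and 3 (-0.29). Over all 4336 genes, 10.3% were higher and 11.7% lower without overlap, and the median was -0.01. Lists of so few genes were not tested against these shares. Of 6 granule precursor genes ZIC4 was higher without overlap (0.51 ± 0.41). FKBP5 had overlapping groups (-0.88 ± 0.53).

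Genes of the lowest unadjusted p without overlap between groups are given as the leading candidates of a comparison without calls, with adjusted p near 1 by edgeR. With fetal sex as a term, the edgeR adjusted p was 0.128 for LRP1B and 0.184 for MDGA2, and above 0.65 for the others. MDGA2, an adhesion molecule of synapses, had 97.9, 85.9, 297 and 272 CPM (1.65 ± 0.41). LRP1B, a receptor of the LDL receptor family, had 169, 373, 665 and 897 CPM (1.54 ± 0.46) and OPCML, a neuronal adhesion molecule, 54.4, 76.0, 211 and 150 CPM (1.46 ± 0.44). All 3 were low in the members against the other barcodes of the Control libraries, where MDGA2 had 883 and 401 CPM.

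In the LPS female library these genes rested on few nuclei, and OPCML did in the LPS male library as well, where 13 of its 22 UMIs came from 1 member. A single member of the LPS female library held 67 of 85 UMIs of LRP1B, and the same member held 28 of 38 UMIs of MDGA2, 26 of 27 of OPCML and 10 of 27 of UST. With PDGFRA not used for exclusion, the difference of MDGA2 turned to -0.19 and that of UST went to 0.11, and the other 4 genes stood between 0.51 (LRP1B) and 1.59 (CST3). UST, a sulfotransferase of the extracellular matrix (1.49 ± 0.43), CLVS1, a lipid-binding protein of neurons (1.48 ± 0.48), and CST3, the protease inhibitor cystatin C (2.24 ± 0.76), completed the 6 higher genes. CST3 had 43.5, 9.91, 133 and 102 CPM in the members and 80.9, 13.9, 111 and 137 CPM in the other barcodes. It was thus higher in both LPS libraries in either kind of barcode.

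The 6 lower genes included 2 of cell division. Of 11 mitotic genes outside the rule that were tested, however, 0 were lower and 1 was higher without overlap (median log2 difference -0.22). Over all genes tested, 11.7% were lower and 10.3% higher. KIF15, a spindle kinesin, had 218, 231, 70.5 and 109 CPM (-1.29 ± 0.42) and CEP152, which starts centriole duplication, 136, 152, 70.5 and 40.8 CPM (-1.35 ± 0.49). KIF15 was spread over 22, 48, 7 and 10 members, with at most 5 UMIs in any of them. INTS7, of the Integrator complex, differed by -1.32 ± 0.44 and EEFSEC, the selenocysteine elongation factor, by -1.30 ± 0.47. CDH4, a cadherin, had 201, 585, 149 and 34.0 CPM (-2.09 ± 0.71). Its difference was -0.42 between the females and -3.92 between the males, and -1.37 without the LPS male and -1.17 without the Control male library. RNF170, a ubiquitin ligase of the endoplasmic reticulum, had 12, 28, 0 and 2 UMIs. With PDGFRA not used these 6 stayed negative but were smaller, KIF15 at -0.32 and CEP152 at -0.59.

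**Figure D5:**
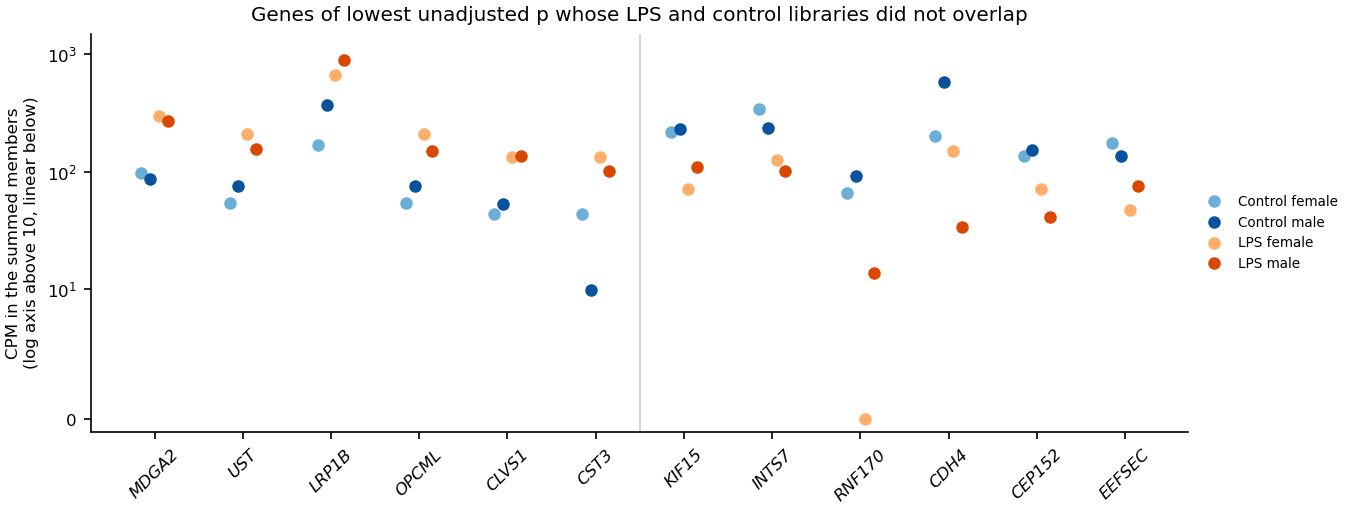
CPM in the summed members of each library for the 6 higher (left of the line) and 6 lower genes of lowest unadjusted p whose groups did not overlap, on an axis that is logarithmic above 10 CPM. For MDGA2 both LPS points (297 and 272 CPM) lie above both Control points, and RNF170 is at 0 in the LPS female library.

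Whether the LPS difference of a gene was another in the members than in the other barcodes was tested in a fit with a term for each library. It called 2 of 14667 genes (0.0136%) at an adjusted p under 0.1, with 462 at an unadjusted p under 0.05, and DESeq2 called 0 (120 unadjusted). Both differences were positive. With PDGFRA not used for exclusion the edgeR fit called 52 of 15388 genes, 7 positive and 45 negative. HTR1F, a serotonin receptor, had 1, 0, 1 and 20 UMIs in the members (log2 difference of differences 5.39 ± 1.04 SE, edgeR adjusted p 0.00307), and all 20 came from 1 member of the LPS male library. DLC1 had 7, 5, 2 and 38 UMIs (2.17 ± 0.49, edgeR adjusted p 0.0600), and 29 of the 38 came from 1 member of that library. In the other barcodes DLC1 stood at 106, 96.9, 99.5 and 127 CPM and HTR1F at 25.1, 32.3, 27.8 and 20.03 CPM, so both calls rested on a nucleus each and not on the members as a group. Without the LPS male library 3 genes were called, without the LPS female library 14, without the Control male library 5 and without the Control female library 2.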

How the data were processed

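Single-nucleus RNA was measured in 4 libraries (10x Genomics 3' chemistry), 1 per fetus. The deposited matrices are raw UMI counts (genes by barcodes), produced by the authors with Cell Ranger (version 4 by the submitters' processing notes, another in the methods) on Mmul_8.0.1 with introns counted. They were not corrected for free RNA, and no correction was added. Names for 897 of 30807 gene IDs were taken from a reference table. Barcodes with 500 or more genes were kept. The members, the comparisons and the 29 gene lists were chosen with earlier results of these data known, so no list is independent support.

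Members were summed per library and compared with the other barcodes as log2 of CPM plus 5, for genes with a mean of 2 CPM or more. Named genes were those of the rule, up to 4 genes per list with the highest difference in the least favourable library (and the hedgehog and granule precursor genes with 20 CPM or more), the 10 leading genes outside the rule, the called genes, and the 6 higher and 6 lower genes of lowest p whose groups did not overlap between LPS and Control. A few others, such as PCNA, MKI67 and ATOH1, were named as common markers after their values were seen. Not every gene that met this rule is reported here.

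Shares were tested by exact permutation over libraries. Genes were tested with edgeR 4.0.16 (filterByExpr, TMM, quasi-likelihood, Benjamini-Hochberg) in R 4.3.3 and with DESeq2 1.42.0 on the same sums. The edgeR fits, but not DESeq2, had first been run on simulated counts. The changes planted there were large, so the power for small differences was not tested. The thresholds (adjusted p of 0.1, absolute log2 difference of 0.25) follow the study, whose methods give no base for the logarithm. The fetus was the replicate. Scrublet (scanpy 1.11.5) scored doublets within each library. Its automatic threshold marked 0% and 0.0256% of the male libraries, where the median threshold of the female libraries (0.189) was used. Doublets were kept in the main comparison and removed as an alternative. The other alternatives were 1000 genes per barcode, a limit of 5% mitochondrial UMIs, 4 S-phase genes, 1 UMI of the exclusion genes allowed, thinning to 1000 UMIs, granule lineage barcodes as denominator, another normalization, no filter, fetal sex as a term and each library left out. PDGFRA or all exclusion genes unused were added after seeing the data. Intervals cover counting error only.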

Additional observations from a re-analysis of the deposited data

Results flagged for a closer look

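The female and the male fetuses moved in opposite directions between LPS and Control in several values of the members. Each sex has 1 library per group, so the difference between the sexes was not tested, and it cannot be told apart from the depth of the libraries. The share of members was higher in LPS by 0.18 on the log2 scale in females and stood at -1.22 in males, but with 4 or more S-phase genes required it was negative in both (-0.23 and -1.16). The mitotic barcodes per member stood at -0.82 in females and 0.38 in males. Of the 9 hedgehog genes tested, 5 had opposite signs, a share near that of all genes tested (2212 of 4336) and so not particular to the pathway. They were PTCH1 (0.069 in females, -0.34 in males), SUFU (0.089, -0.060), BOC (-0.53, 0.11), CDON (-0.20, 0.12) and SFRP1 (0.75, -0.22).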

How the results depend on the processing

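The difference in the share of members between LPS and Control stayed negative, between -0.70 and -0.18 on the log2 scale, under the 9 alternatives that kept all 4 libraries, and ran from -1.32 to 0.29 with 1 library left out, where it turned positive without the Control male library. The mitotic barcodes per member stood between -0.25 and 0.035, the positive value with PDGFRA not used for exclusion, and between -0.76 and 0.32 with 1 library left out, positive without the Control female library. The cause was not tested. No alternative reached p under 0.05, which 4 libraries cannot reach.

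The count of genes called between LPS and Control in the members (0) moved to 5 without a filter on low counts and to 1 to 24 with 1 library left out, and was 0 under the other alternatives, fetal sex as a term (a block of females and males) included. No hedgehog gene was called under any of 15 alternatives. The count for the difference of differences (2) was 4 with doublets removed and with 4 S-phase genes, 0 with 1 UMI of the exclusion genes allowed and with DESeq2, 1 without a filter, 52 with PDGFRA not used, 26 without exclusion genes and 2 to 14 with 1 library left out. Of the 12 genes named between LPS and Control, MDGA2 turned to -0.19 with PDGFRA not used, and none of the other 11 changed sign where they could be fitted. Several shrank by more than 1.5 times: with 1 UMI of the exclusion genes allowed the 6 higher genes stood between 0.34 (UST) and 1.64 (CST3), MDGA2 at 0.59, and the 6 lower between -1.64 (CDH4) and -0.36 (INTS7), and with 4 S-phase genes LRP1B went to 0.50. The counts of list genes higher or lower in the members stayed within 1.5 times under all 10 alternatives run for 8 lists. The sample labels number no replicates, so the only pairing made was this block by fetal sex, with 0 calls in the members. Depth also limits single genes, since the members of a library hold at most 302777 UMIs.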
